A study of Mus musculus with 6 samples.

Results

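Coagulation ends in a fibrin clot, and plasminogen activation dissolves it. Tissue factor on a cell surface binds factor VII, the complex activates factor X, factor X makes thrombin, and factor XIII cross-links the fibrin that thrombin forms. Thrombomodulin and tissue factor pathway inhibitor restrain these steps. Urokinase, bound to its receptor, turns plasminogen into plasmin, and plasminogen activator inhibitor 2 blocks urokinase. Macrophages are a known source of several of these proteins, and bacterial products are known to raise tissue factor and plasminogen activator inhibitor 2 in them.

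The genes described here are Serpinb2, Plau, Plaur, F3, F7, F10, F13a1, Thbd and Tfpi, chosen by name with earlier results of these data known. Every probe set of the array that maps only to a member gene was used. That gave 15 probe sets for the 9 genes, of 45037 probe sets and 18193 named genes in all. Levels were measured in mouse macrophages on 6 one-colour Affymetrix arrays, 1 per sample. One pair of arrays holds wild-type macrophages treated with lipopolysaccharide (LPS, a bacterial cell wall component; 1 array) or with medium (1 array). The other 4 arrays come from the Trib1 line, all treated with LPS: 2 from Trib1 knockout macrophages and 2 from wild-type macrophages. Their labels carry the number 1 or 2, each shared by 1 knockout and 1 wild-type array. The labels do not say whether that number pairs the arrays. Trib1 encodes a pseudokinase that helps to degrade C/EBP transcription factors. The labels give no strain, age, sex, tissue of origin, LPS dose or time, and they do not state whether the 2 arrays of each genotype hold RNA of different mice or cultures. The p-values given here reflect the spread among these arrays, and that spread may be technical.

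Values are MAS5 intensities rescaled to a common trimmed mean of 234 per array, here called scaled intensity. Values under 29.9, the 40th percentile over all arrays, were raised to it as a floor before log2 was taken. All 15 probe sets lay above that floor on all 6 arrays. Between 57.9% and 63.0% of all probe sets lay above it on each array. The 8 macrophage markers examined were above it on every array. Trib1 itself measured 88.1 and 20.9 on the knockout-labelled arrays, against 17.9 and 17.5 on the wild-type arrays of the Trib1 line, by probe set 1424880_at. Of these values only 88.1, on knockout 1, lay above the floor. On the LPS and medium arrays of the LPS pair that probe set measured 189.3 and 383.5. A second probe set, 1424881_at, measured 32.3 and 38.7 on the knockout-labelled arrays, against 20.2 and 63.0 on the wild-type arrays of the line. Trib1 levels therefore do not check the genotype labels, and directions between genotypes rest on those labels. Xist, the X-inactivation RNA, measured 980.5 and 1616 on the LPS and medium arrays of the LPS pair and lay under the floor on all 4 Trib1-line arrays. Eif2s3y, a Y-linked gene, measured 471.7 and 366.6 on the knockout-labelled arrays of the Trib1 line and 534.2 and 218.8 on its wild-type arrays and lay under the floor in the LPS pair. The LPS pair and the Trib1 line thus differed in sex by these transcripts. They also differed in deposited scale, with trimmed means of 500.0 in the pair and 95.5 to 106.6 in the line. Differences between the pair and the line cannot be told apart from these.

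**Figure D1:**
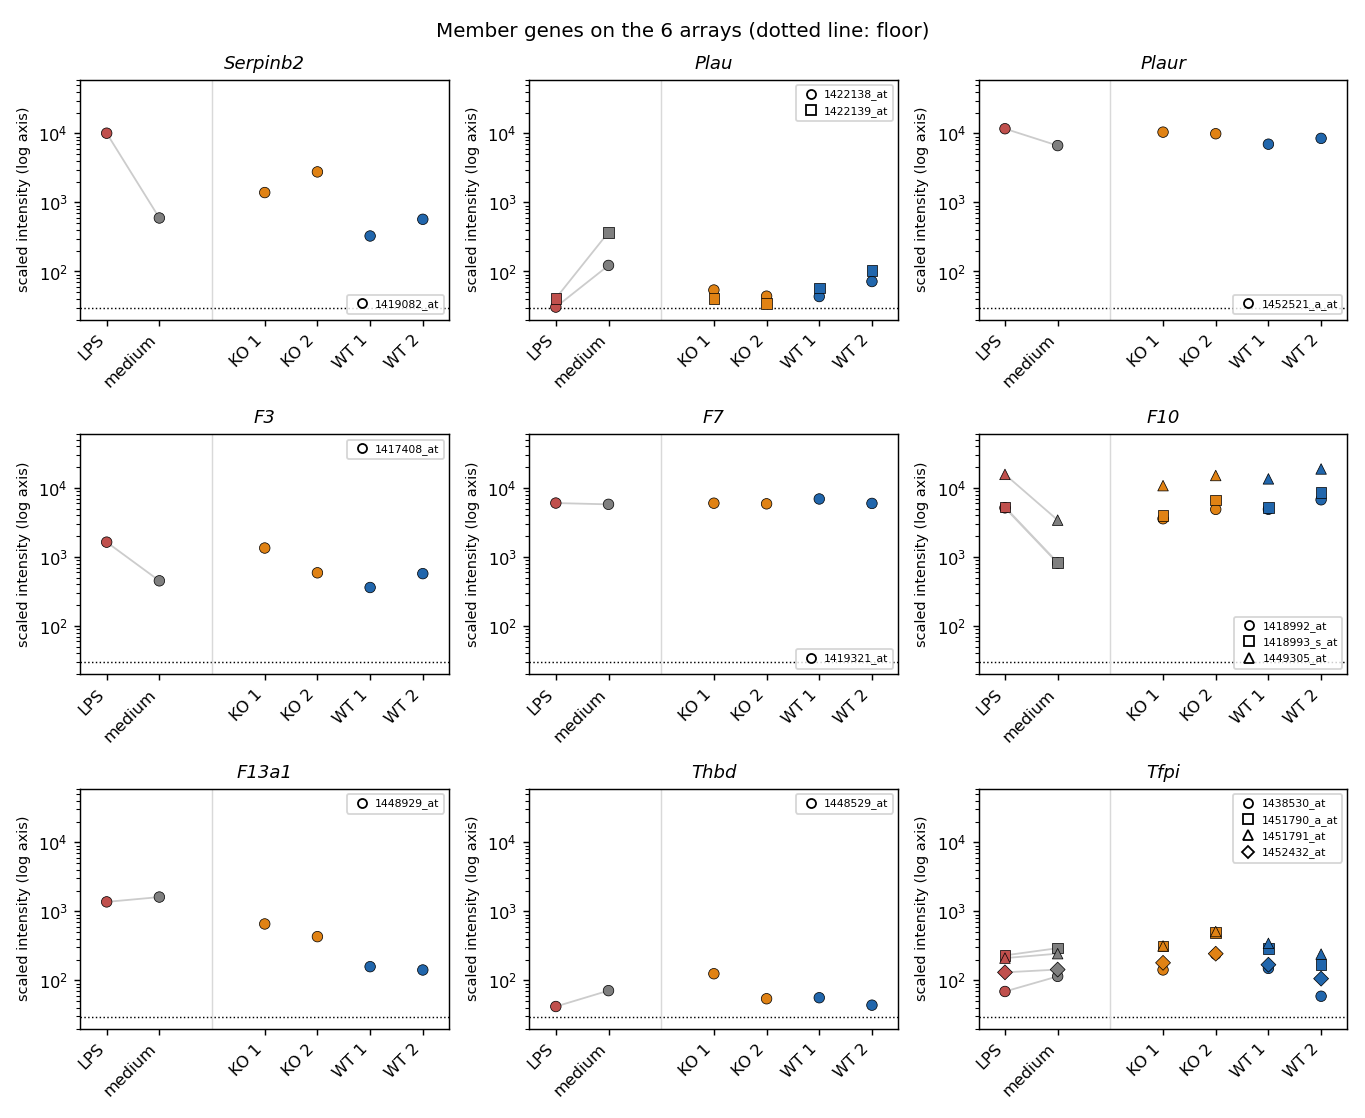
Scaled intensity (log axis) of the 15 probe sets of the 9 genes on each of the 6 arrays, 1 panel per gene and 1 marker shape per probe set. KO and WT are the knockout-labelled and wild-type arrays of the Trib1 line, the grey line joins the LPS pair, and the dotted line is the floor of 29.9. F10 lay lowest in medium by all 3 probe sets, Plau lay highest in medium by both, and Serpinb2 measured 10077 on the LPS array beside medium.

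Promoter sequence is shown for Serpinb2, F3, Plaur and F10, the genes with the highest ratios of LPS over medium below, so that the bases before their starts can be read beside the values. RefSeq windows of the 250 bases before a listed transcript start (GRCm38.p6) were available for 7 of the 9 genes, 10 windows in all. They were searched on both strands for TTGCNNAA (C/EBP type), TGANTCA (AP-1), TGACGTCA (cyclic AMP response element), GGGANNTTC (NF-kB type) and TATAAA. Capitals mark the matches. The windows, all on the plus strand, are the upstream of 2 listed starts for Serpinb2 (chr1:107511173-107511422), then F3 (chr3:121723287-121723536), Plaur (chr7:24462233-24462482) and F10 (chr8:13037058-13037307).
Serpinb2: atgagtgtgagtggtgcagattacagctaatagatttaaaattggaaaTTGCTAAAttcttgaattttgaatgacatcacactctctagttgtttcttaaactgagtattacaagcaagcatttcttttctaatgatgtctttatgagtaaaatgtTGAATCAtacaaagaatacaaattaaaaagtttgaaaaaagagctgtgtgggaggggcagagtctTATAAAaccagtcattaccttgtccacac
F3: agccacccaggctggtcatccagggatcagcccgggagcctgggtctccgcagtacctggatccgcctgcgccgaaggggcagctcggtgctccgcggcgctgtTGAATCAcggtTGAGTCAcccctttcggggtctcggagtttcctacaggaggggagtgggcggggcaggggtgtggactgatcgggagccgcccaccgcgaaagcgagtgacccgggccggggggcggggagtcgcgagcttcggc
Plaur: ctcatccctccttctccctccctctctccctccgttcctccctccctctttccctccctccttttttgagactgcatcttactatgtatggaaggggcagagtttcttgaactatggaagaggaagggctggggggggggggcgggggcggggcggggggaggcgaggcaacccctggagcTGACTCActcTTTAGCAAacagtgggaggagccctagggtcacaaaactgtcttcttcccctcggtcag
F10: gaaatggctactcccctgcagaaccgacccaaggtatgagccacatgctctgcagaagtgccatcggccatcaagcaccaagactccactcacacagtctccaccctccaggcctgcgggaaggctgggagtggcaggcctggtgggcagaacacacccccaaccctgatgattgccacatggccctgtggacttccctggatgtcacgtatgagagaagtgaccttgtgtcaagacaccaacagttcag
The listed starts of Serpinb2 and Plaur used here lie inside the gene bounds given below, which begin at 107500892 and 24460937. The AP-1 letters stood 94 bases before the upstream listed Serpinb2 start, 69 before the listed Plaur start, and 146 and 135 before the F3 start. They were in 4 of the 10 windows, the fourth being the downstream Serpinb2 window, which overlaps the first and holds the same match. Of all 32851 RefSeq windows of this length, 6.75% held them. The C/EBP-type letters were in 3 of 10 windows (both Serpinb2 windows and Plaur), against 9.56% of all. TATAAA was in 3 of 10 (both Serpinb2 windows, as the same match, and the upstream start of Tfpi), against 12.4%. The response element and NF-kB letters were in 0 of 10, against 1.55% and 3.23% of all windows. No searched letters lay in the F10 window, nor in those of F7 and F13a1. A match describes the letters of a window and is not evidence of a bound site.

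Which of these genes respond to LPS was asked of the LPS pair, which per the series description defines LPS-inducible genes. In the pair, factor X and plasminogen activator inhibitor 2 transcripts were higher with LPS and urokinase transcripts were lower. For plasminogen activator inhibitor 2, neither LPS-treated wild-type array of the Trib1 line lay above medium (326.6 and 569.9, against 595.3). With a single array of each condition there was no test. A probe set counted as induced where LPS exceeded medium 4-fold or more, and as repressed where it was lower by that much. By that rule 4 of the 15 probe sets were induced (1 of Serpinb2 and 3 of F10), where 0.986% of 29115 probe sets above the floor in the pair were. Both Plau probe sets were repressed, where 0.598% of all were. The other 9 lay within 4-fold. The median log2 ratio was -0.13 over the 15 probe sets and -0.09 over all.

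F10, which encodes the factor that converts prothrombin to thrombin, lay above medium on every LPS-treated array. Its gene lies on chromosome 8 from 13037308 to 13056676, 1498 bases beyond the end of F7 (13025506 to 13035809). On probe set 1418992_at F10 measured 5139.6 with LPS, against 812.2 in medium, a 6.33-fold difference. The Trib1-line arrays, also LPS-treated, measured 3575 and 4885 (knockout-labelled) and 4902 and 6729 (wild type). Every LPS-treated array was thus at least 4.40-fold above medium on this probe set. On 1418993_s_at the LPS array measured 5265, against 828.2 in medium, 6.36-fold higher, and the Trib1-line arrays were 4.78- to 10.4-fold above medium. On 1449305_at the LPS array measured 15694, against 3412 in medium, 4.60-fold higher, with 3.16- to 5.51-fold on the Trib1-line arrays. All 3 F10 probe sets had their lowest value in medium and their highest on wild type 2. Of the 15 probe sets, 2 (both F10) were at least 4-fold above medium on all 5 LPS-treated arrays, where 0.242% of 34684 probe sets above the floor on any array were. On all 5, 0 of the 15 were 4-fold or more below medium, as 0.141% of all were. When the 3 wild-type LPS arrays were set against the lone medium array with limma, with medium assumed to vary like them, F10 had log2 differences of 2.77, 2.89 and 2.22 (SE 0.30, 0.37 and 0.32; Benjamini-Hochberg adjusted p = 0.0313, 0.0534 and 0.0689) on the 3 probe sets in the order above. The first alone passed, where 0.158% of 28430 probe sets were called higher and 0.0106% lower. In that fit 2 of the 3 LPS arrays came from the Trib1 line, as did 4 of the 5 LPS-treated arrays compared with medium above. The line differed from medium in sex-linked transcripts and deposited scale, so LPS and line are partly confounded in these comparisons. Under quantile normalization the ratio of 1449305_at fell short of 4-fold (log2 1.87).

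F7, the neighbouring gene, encodes the factor that tissue factor binds. It measured 6032 with LPS, against 5778 in medium (1.04-fold). On the Trib1-line arrays it measured 6002 and 5879 (knockout-labelled) and 6911 and 5960.0 (wild type). The 6 values lay within 1.20-fold of medium, and all 5 LPS-treated arrays lay above medium, as did 19.7% of all probe sets.

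**Figure D2:**
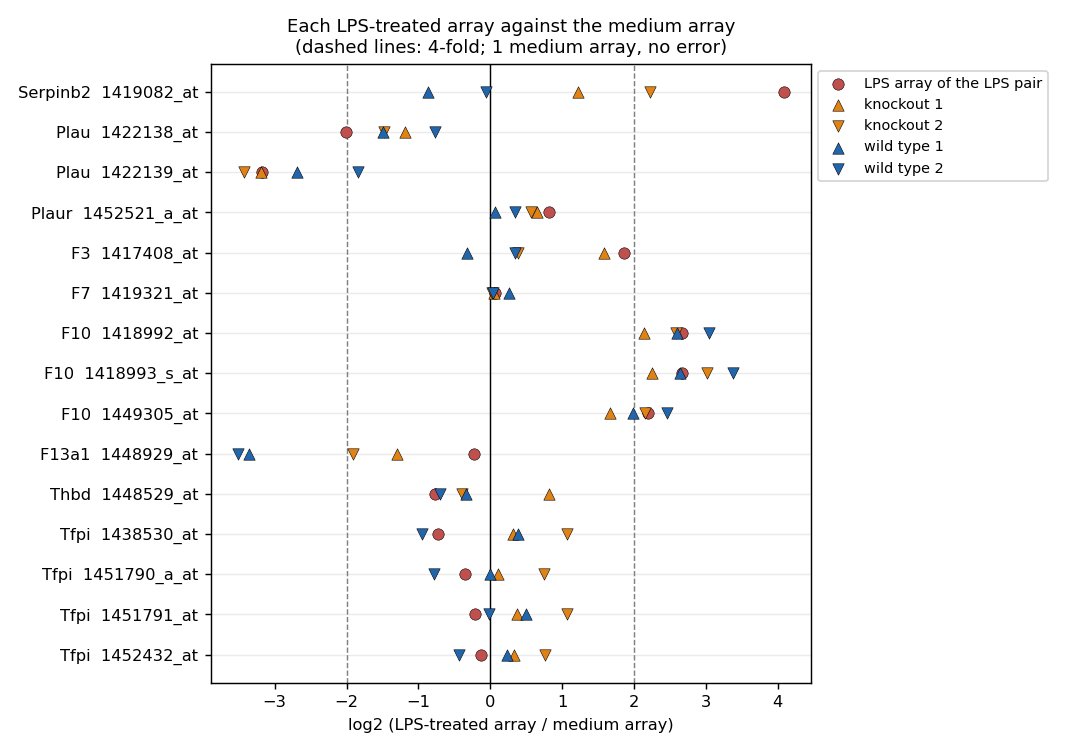
Log2 ratio of each of the 5 LPS-treated arrays to the medium array (x axis) for each of the 15 probe sets (rows); dashed lines mark 4-fold and there is 1 medium array, so no error is drawn. The F10 points lie together between 3.16- and 10.4-fold above medium, whereas the Serpinb2 points run from 0.549 of medium to 16.9-fold above it.

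Serpinb2 (chromosome 1, 107500892 to 107525600) encodes plasminogen activator inhibitor 2, a serpin that blocks urokinase and is held largely inside the cell. It measured 10077 with LPS, against 595.3 in medium, 16.9-fold higher. The Trib1-line arrays measured 1391 and 2771 (knockout-labelled) and 326.6 and 569.9 (wild type). Both wild-type Trib1-line arrays, though LPS-treated, lay under medium, and the direction of the LPS difference turned when either took the place of the LPS array (log2 -0.87 with wild type 1 and -0.06 with wild type 2). The LPS array stood 30.9- and 17.7-fold above wild type 1 and 2 of the Trib1 line, which carry the same genotype and treatment labels. With all 3 wild-type LPS arrays against medium the log2 difference was 1.05 (SE 1.66; limma, adjusted p = 0.900).

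Plau (chromosome 14, 20836662 to 20843388) encodes urokinase, which converts plasminogen to plasmin. On 1422139_at it measured 40.8 with LPS, against 369.8 in medium, 9.06-fold lower with LPS. The Trib1-line arrays measured 40.4 and 34.4 (knockout-labelled) and 57.4 and 103.6 (wild type), all below medium. On 1422138_at it measured 30.5 with LPS, against 122.3 in medium, 4.01-fold lower and just inside the 4-fold rule, and the Trib1-line arrays measured 53.8 and 43.8 (knockout-labelled) and 43.3 and 71.5 (wild type). Medium was the highest of the 6 arrays on both probe sets, as on 21.1% of all probe sets. The LPS values stood close to the floor of 29.9, which limits how low a ratio can be read. The second probe set missed 4-fold under quantile normalization (log2 -1.82), with log2 of the value plus 16 (-1.57) and with the higher floor at the 60th percentile (-0.79). With wild type 1 or 2 of the Trib1 line in place of the LPS array, 1422138_at was at -1.50 and -0.77. The other, 1422139_at, was at -2.69 and -1.84, short of 4-fold with wild type 2. In the limma fit of 3 wild-type LPS arrays against medium the log2 differences were -2.57 (SE 0.63, adjusted p = 0.267) and -1.42 (SE 0.59, adjusted p = 0.600), and neither passed.

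Plaur (chromosome 7, 24460937 to 24475970) encodes the urokinase receptor. It measured 11703 with LPS, against 6666 in medium (1.76-fold higher), and 10441 and 9902 on the knockout-labelled arrays of the Trib1 line and 6985 and 8481 on its wild-type arrays. All 5 LPS-treated arrays lay above medium, by 1.05- to 1.76-fold. Of the 15 probe sets, 5 (Plaur, F7 and 3 of F10) had that order, beside the 19.7% over all probe sets.

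F3 (chromosome 3, 121723537 to 121735052) encodes tissue factor, the cell-surface trigger of coagulation. It measured 1636 with LPS, against 450.5 in medium, 3.63-fold higher and just outside the rule. The Trib1-line arrays measured 1345 and 588.6 (knockout-labelled) and 360.4 and 572.3 (wild type). Wild type 1 lay under medium and knockout 1 was 2.99-fold above it, so LPS-treated arrays ran on both sides of medium.

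F13a1 (chromosome 13, 36867178 to 37050244) encodes the catalytic A subunit of factor XIII. It measured 1373 with LPS, against 1613 in medium, and 657.2 and 430.6 on the knockout-labelled arrays of the Trib1 line and 158.0 and 141.5 on its wild-type arrays. All 5 LPS-treated arrays lay below medium, and the 4 of the Trib1 line lay below the LPS array too. The LPS array stood 8.69- and 9.70-fold above wild type 1 and 2, with the same genotype and treatment labels. With either of these in place of the LPS array F13a1 became repressed by the 4-fold rule (log2 -3.35 and -3.51).

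Thbd and Tfpi, which encode inhibitors of coagulation, differed by at most 1.70-fold with LPS in the pair. Thbd (chromosome 2, 148404471 to 148408188), encoding thrombomodulin, through which thrombin activates protein C, measured 41.8 with LPS, against 71.1 in medium. It measured 124.9 and 54.2 on the knockout-labelled arrays of the Trib1 line and 56.1 and 43.8 on its wild-type arrays, so knockout 1 alone lay above medium. The LPS value of Thbd stood close to the floor of 29.9, which limits how low its ratio can be read. Tfpi (chromosome 2, 84432855 to 84476775), encoding the inhibitor of factor X and of the tissue factor complex, has 4 probe sets. On 1451790_a_at it measured 230.5 with LPS, against 293.0 in medium, and 316.2 and 491.5 on the knockout-labelled arrays of the Trib1 line and 291.8 and 170.7 on its wild-type arrays. LPS was below medium on all 4 Tfpi probe sets, with ratios of 0.604 to 0.911. Knockout 2 was the highest of the 6 arrays on all 4, and wild type 2 the lowest on all but 1451791_at, where the LPS array was lowest.

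Whether the genes differ between Trib1 genotypes after LPS was tested with limma on the 4 Trib1-line arrays over all probe sets (n = 2 per genotype). Serpinb2 and F13a1 were higher on both knockout-labelled arrays by several-fold, but no gene passed the test. Of the 15 probe sets 0 were called at a Benjamini-Hochberg adjusted p under 0.05, as were 0 of all 29078 tested (0% in either direction). The adjusted p ran from 0.766 to 0.999 over the 15. At an unadjusted p under 0.05, 2 of 15 were higher (Serpinb2 and F13a1), beside 2.28% of all, and 1 was lower (Plau on 1422139_at), beside 2.71%. Both knockout-labelled arrays lay above both wild-type arrays on 6 of 15 probe sets (Serpinb2, Plaur, F3, F13a1 and 2 of Tfpi), beside 15.4% of all. They lay below on 2 (Plau on 1422139_at and F10 on 1418992_at), beside 16.3%. Probe sets of one gene share its transcript and are not independent. The median log2 difference was 0.48 over the 15 and -0.01 over all. With 2 arrays on each side, the smallest two-sided p that an exact permutation test allows is 0.333.

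**Figure D3:**
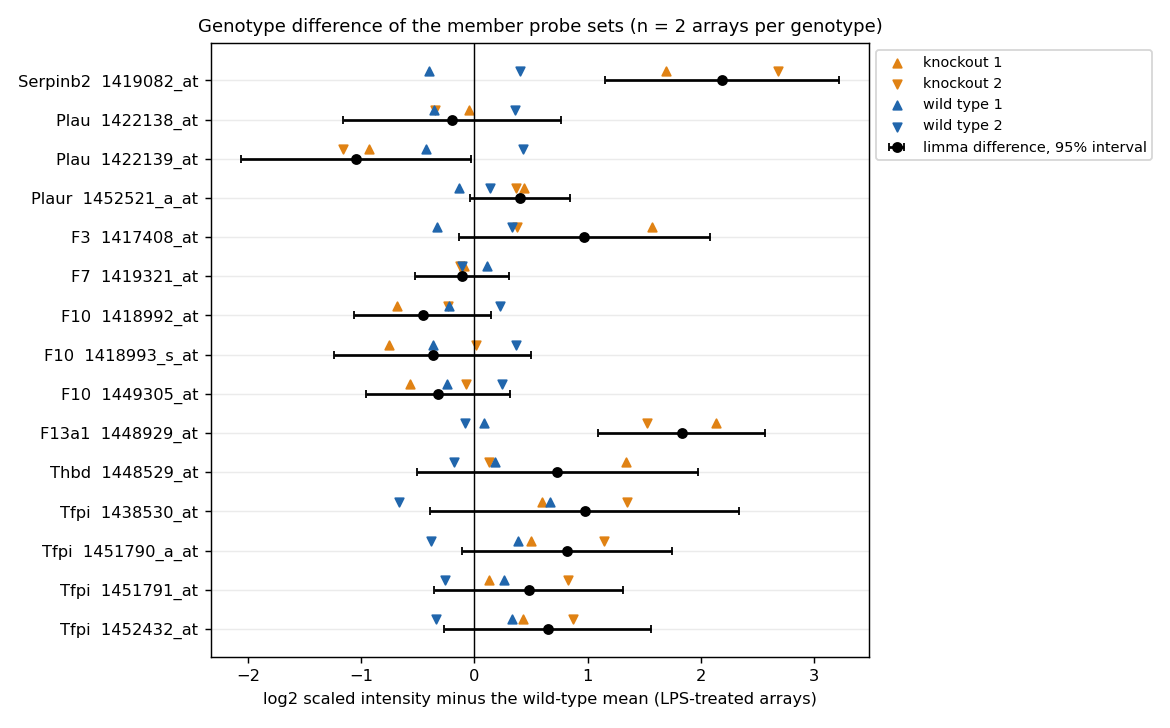
Log2 scaled intensity of each Trib1-line array minus the wild-type mean (triangles), with the limma difference between knockout-labelled and wild-type arrays and its 95% interval (black, n = 2 arrays per genotype), for the 15 probe sets. The intervals of Serpinb2, F13a1 and, on 1422139_at, Plau lie to one side of 0, and no probe set passed the adjustment over all 29078.

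Serpinb2 averaged a log2 intensity of 10.94 ± 0.70 on the knockout-labelled and 8.75 ± 0.57 on the wild-type arrays (SD, n = 2 each). The difference was 2.19 (4.55-fold; SE 0.42, 95% interval 1.15 to 3.22; limma, Benjamini-Hochberg adjusted p = 0.818 over all probe sets). The groups did not overlap. Without knockout 1 the difference was 2.68 and passed (adjusted p = 0.00569), with knockout 2 as a lone array assumed to vary like the wild-type arrays. Counting the LPS array of the pair as a further wild type, the difference was 0.67 (adjusted p = 0.999). That array measured 10077, above both knockout-labelled arrays. Over 14 alternatives the adjusted p ran from 0.00569 to 0.999, and all 14 kept the direction.

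F13a1 averaged 9.06 ± 0.43 on the knockout-labelled and 7.22 ± 0.11 on the wild-type arrays (log2, SD, n = 2 each). The difference was 1.83 (3.56-fold; SE 0.30, 95% interval 1.09 to 2.57; limma, adjusted p = 0.766). The groups did not overlap, yet both arrays of the LPS pair, also wild type, lay above the knockout-labelled arrays. With the LPS array added as a wild type the difference was 0.76. Over 14 alternatives the adjusted p ran from 0.0310 to 0.999, all in the same direction; the lowest, and the only call, was with the label number as a block, where Serpinb2 was also called (adjusted p = 0.00602).

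F3 differed by a log2 of 0.97 (SE 0.45, 95% interval -0.13 to 2.08; limma, adjusted p = 0.999). Its lower knockout-labelled value, 588.6, and its higher wild-type value, 572.3, nearly met. Without knockout 1 it was 0.37 and without knockout 2 it was 1.57, so the difference was larger in the fit that held knockout 1. Plaur differed by 0.40 (1.32-fold; SE 0.18, interval -0.04 to 0.84, adjusted p = 0.999), a difference larger than the spread within either genotype (SD 0.05 knockout-labelled and 0.20 wild type) but short of the threshold. Plau differed by -1.05 on 1422139_at (SE 0.41, interval -2.06 to -0.03, adjusted p = 0.979) and by -0.20 on 1422138_at (SE 0.39, interval -1.16 to 0.76). The second probe set did not keep its sign: without wild type 2 it was 0.165, and with the LPS array added it was 0.09.

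F10 was slightly lower on the knockout-labelled arrays by all 3 probe sets, with log2 differences of -0.46, -0.37 and -0.32 (SE 0.24, 0.35 and 0.26) and intervals that spanned 0 (-1.07 to 0.15, -1.24 to 0.50 and -0.96 to 0.32). On 1418993_s_at the difference was 0.01 without knockout 1. F7 differed by -0.11 (SE 0.17, interval -0.52 to 0.30), the narrowest interval of the 15. Tfpi differed by 0.48 to 0.97 over its 4 probe sets and Thbd by 0.73 (SE 0.50), all with intervals that spanned 0. Single arrays moved these by over 1.5 times. Thbd was at 0.13 without knockout 1 and 1.33 without knockout 2. Tfpi on 1438530_at was at 1.64 without wild type 1 and 0.30 without wild type 2, and the lowest and highest of its other probe sets without 1 array were 0.13 and 1.21. On 1451790_a_at the higher Tfpi values of each genotype were 491.5 (knockout 2) and 291.8 (wild type 1), and the lower ones 316.2 (knockout 1) and 170.7 (wild type 2).

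Markers of macrophages and of other cells moved with genotype, in part through single genes. Cells and RNA per cell cannot be told apart in bulk samples. No marker gene passed the adjusted limma test, so the counts of single markers here are at an unadjusted p under 0.05. At that p, 2.28% of all 29078 probe sets were higher and 2.71% lower. The summed scaled intensity of 8 macrophage markers was 91160 and 91270 on the knockout-labelled arrays, against 77078 and 84793 on the wild-type arrays. Without Lyz2 it was 70178 and 71458, against 56550 and 62931. Of 8 tested, 2 were higher (Itgam and Cd14). Both knockout-labelled arrays lay above both wild-type arrays on 5 of the 8 and below on 1, beside 15.4% and 16.3% of all probe sets. The summed scaled intensity of 9 neutrophil markers was 19036 and 8560 on the knockout-labelled arrays, against 1819 and 1732 on the wild-type arrays. Most of it came from S100a8, S100a9 and Mmp8, and without S100a8 it was 10183 and 1246, against 568.3 and 494.2. Of 8 tested, 4 were higher (these and Camp) and Ltf, the lactoferrin gene, was lower, with 40.2 and 12.7, against 87.0 and 87.2. Mpo and Elane overlapped between the groups. S100a9 and Camp were under the floor on both wild-type arrays, and Cxcr2 on both of these and on knockout 2.

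The sum of 13 mesothelial and stromal markers was 2005 and 4600 on the knockout-labelled arrays, against 1383 and 1669 on the wild-type arrays. Of 10 tested, 2 were higher, the stromal genes Col1a1 and Dcn. The mesothelial genes Upk1b, Upk3b and Krt19 were under the floor on all Trib1-line arrays but knockout 2. Krt18, Col3a1, Lrrn4, Lum and Wt1 overlapped between the groups. The sum of 8 mast cell markers was 583.8 and 328.5, against 777.5 and 1111 on the wild-type arrays. Without Cpa3 the groups overlapped, at 536.0 and 210.7, against 480.4 and 744.2. Of 6 tested, 4 were lower (Cpa3, Tpsb2, Cma1 and Fcer1a). Hdc, the histidine decarboxylase gene, measured 373.1 on knockout 1 and lay under the floor on the other 3 arrays, and of these 4 arrays Mcpt4 lay above it on wild type 2 only. The sum of 5 B cell markers was 313.4 and 517.4, against 538.7 and 704.5. Without Ms4a1 the sums overlapped, at 236.9 and 372.2, against 349.4 and 479.3. Of 5 tested, 0 had an unadjusted p under 0.05 by limma. Both knockout-labelled arrays lay below both wild-type arrays on 4 of the 5 (all but Blk), beside 16.3% of all probe sets. The sum of 9 T and NK cell markers was 643.3 and 731.7, against 2119 and 2124. That gap was mostly that of Klrk1, which measured 230.3 and 263.3, against 1671 and 1485. Without Klrk1 the sums overlapped, at 413.0 and 468.4, against 448.2 and 639.3. Of 7 tested, 2 were lower, Klrk1 and Gzma, the latter with 36.3 and 87.3, against 121.3 and 170.2. Both knockout-labelled arrays lay below both wild-type arrays on 3 of the 7 (these and Gzmb), beside 16.3% of all probe sets.

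The sum of 9 platelet and megakaryocyte markers, a lineage that carries F13a1 and Tfpi, was 3468 and 3112 on the knockout-labelled arrays, against 3079 and 3708 on the wild-type arrays, and most of it was Pf4. Without Pf4 it was 678.3 and 887.5, against 617.9 and 663.5, so the groups overlapped with Pf4 and not without it. Gp9, a platelet glycoprotein gene, measured 120.5 and 180.6, against 68.8 and 70.3, and was the 1 of 8 tested that was higher. Gp6 measured 86.9 and 91.0, against 54.3 and 73.2, and Ppbp was under the floor on all 4. The sum of 9 endothelial markers, a lineage that carries Thbd and Tfpi, was 450.0 and 694.0, against 469.0 and 721.1, and Tie1 was under the floor on all 6 arrays. The sums without 1 gene leave out the brightest gene of a list and were added after the values were seen. The part of these cells in the differences of Serpinb2, F13a1, F3 and Tfpi was not tested.

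Among the other genes of these pathways, Procr stood out with LPS, and 0 passed the genotype test by limma over all probe sets. Each gene is given by its probe set with the highest mean. Among 16 other coagulation factor genes 8 were above the floor in the LPS pair, 0 were induced or repressed, and the median log2 ratio was -0.36. Of 9 tested between genotypes 0 had an unadjusted p under 0.05, with a median of 0.04. Fibrinogen genes Fga, Fgb and Fgg lay under the floor on all 6 arrays. The smallest p belonged to F9, factor IX, with a log2 difference of 0.42 (SE 0.31), and Tgm2, a transglutaminase related to factor XIII, with 0.23 (SE 0.24).

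Of 8 anticoagulant genes, 6 were above the floor in the LPS pair and 1 was induced, beside 0.986% of all probe sets above it. That gene, Procr, encodes the receptor that presents protein C to the thrombin-thrombomodulin complex. It measured 11899 with LPS, against 910.7 in medium (13.1-fold), and 15232 and 3757 on the knockout-labelled arrays of the Trib1 line and 13524 and 10037 on its wild-type arrays. All 5 LPS-treated arrays lay above medium, and knockout 2 was the lowest of them. Between genotypes it differed by -0.62 (SE 0.63). Pros1, encoding protein S, a cofactor of activated protein C, measured 527.0 and 427.9 on the knockout-labelled and 1010 and 838.2 on the wild-type arrays (log2 -0.95, SE 0.22; limma, adjusted p = 0.874). Proc, encoding protein C itself, differed by 0.31 (SE 0.24) with values of 39.5 and 34.8, against 30.1 and 15.3, close to the floor. The median was 0.12 for LPS and -0.03 over the 7 tested for genotype.

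Of 13 plasminogen system genes 9 had a probe set, and 0 of the 7 above the floor in the LPS pair met the 4-fold rule (median 0.39). Between genotypes Serpinf2, encoding the plasmin inhibitor alpha-2-antiplasmin, measured 30.9 and 13.7 on the knockout-labelled and 87.2 and 122.1 on the wild-type arrays (log2 -1.76, SE 0.35; limma, adjusted p = 0.818). Knockout 2 was raised to the floor and knockout 1 stood at it, so the floor sets this difference and narrows its SE. Plat, encoding tissue plasminogen activator, measured 90.1 and 125.1, against 39.5 and 61.6 on the wild-type arrays, a log2 difference of 1.11 (SE 0.41; limma, adjusted p = 0.967). Both had separate groups, and neither passed. The median of the 8 tested was 0.10. Plg, which encodes plasminogen, was under the floor in the LPS pair and on all Trib1-line arrays but knockout 2 and wild type 1.

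Of the protease-activated receptors, 3 of 4 had a probe set. F2r, the thrombin receptor gene, measured 76.7 and 69.9 on the knockout-labelled and 112.4 and 191.7 on the wild-type arrays (log2 -1.003, SE 0.40; limma, adjusted p = 0.995), and F2rl2 differed by -0.22 (SE 0.30). F2r lay under the floor on both arrays of the LPS pair. Among 12 clade B serpins, the family of Serpinb2, 10 had a probe set and 0 of the 8 above the floor met the 4-fold LPS rule (median 0.03). Between genotypes 0 of 8 were higher at an unadjusted p under 0.05 by limma, beside 2.28% of all probe sets. At that p 3 were lower, beside 2.71% of all. The median of the 8 was -0.32. The smallest p belonged to Serpinb6b, with a log2 difference of -0.95 (SE 0.25; limma, adjusted p = 0.899), and Serpinb9, a granzyme B inhibitor gene, with -0.63 (SE 0.20, adjusted p = 0.950). The other was Serpinb1a, a neutrophil elastase inhibitor gene, with -1.12 (SE 0.39; limma, adjusted p = 0.955), named after its values were seen. No other clade B serpin measured here reached the 4-fold ratio with LPS that Serpinb2 had.

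**Figure D4:**
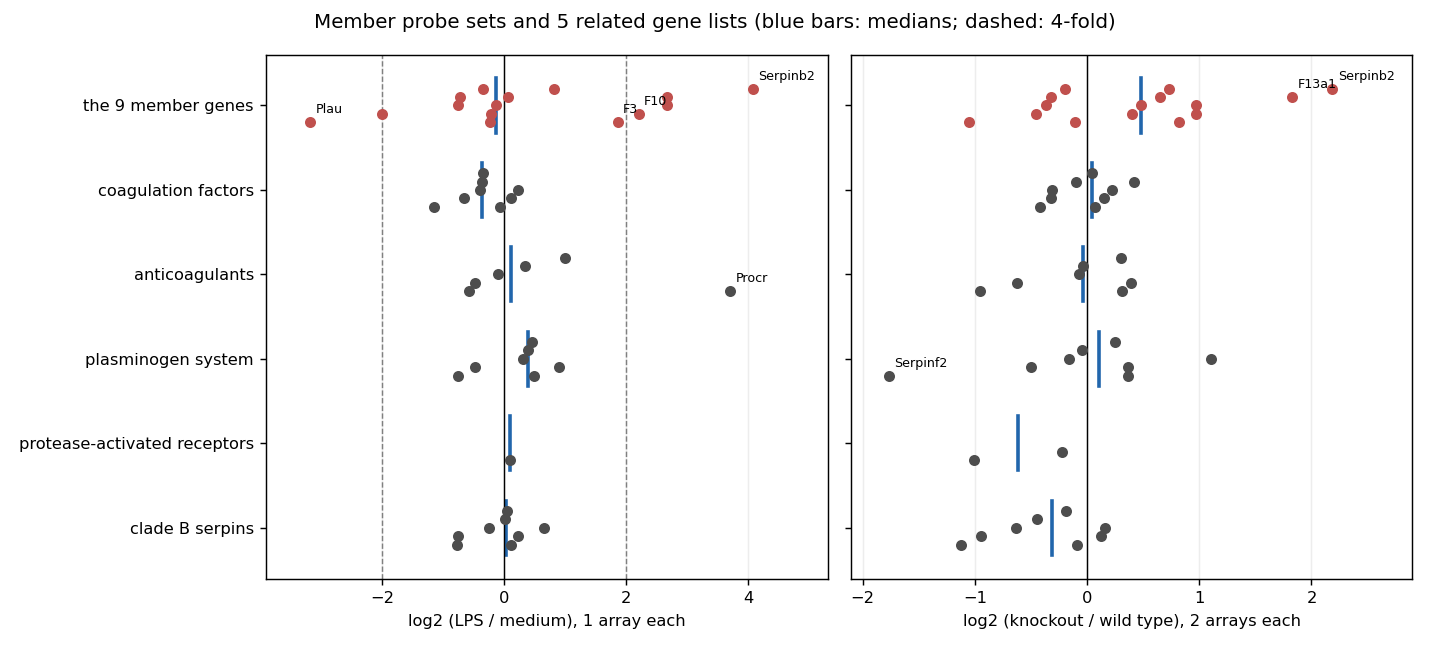
Log2 ratio of LPS over medium (left, 1 array each, dashed lines at 4-fold) and log2 difference of knockout-labelled over wild-type arrays (right, 2 arrays each) for the member probe sets (red) and for the leading probe sets of 5 related gene lists (dark grey), with medians as blue bars. Procr, at 13.1-fold, is the only gene of the 5 lists past 4-fold with LPS.

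Genes were also ranked by how closely their mean-centred log2 values over the 6 arrays followed those of Serpinb2 and of Plau, by Euclidean distance among 12597 other genes. Nearest to Serpinb2 were AI504432, U90926, Rnd1, Phlda1 and Mmp13, at distances of 1.71 to 2.17. Mmp13, a collagenase gene, measured 8544 with LPS, against 1104 in medium, and 3856 and 1143 on the knockout-labelled arrays of the Trib1 line and 541.6 and 753.2 on its wild-type arrays. Both knockout-labelled arrays lay between the LPS array and the wild-type arrays, as with Serpinb2, although for Serpinb2 knockout 2 was the higher and for Mmp13 knockout 1. Nearest to Plau on 1422139_at were Cd300lb, Kif5c, Sectm1a, Sesn1 and Fam102a, at distances of 0.991 to 1.20. Cd300lb, an immune receptor gene, measured 155.5 with LPS, against 1469 in medium, and 320.8 and 248.3 on the knockout-labelled and 363.0 and 543.6 on the wild-type arrays. Values under the floor were raised to it before the distances were taken. U90926, Kif5c and Sectm1a had such values on some arrays, so the floor sets part of their likeness. Such a ranking over 6 arrays is a description and carries no p.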

How the data were processed

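The 6 Affymetrix arrays each hold 1 macrophage sample. Their deposited probe set intensity values are linear and were made by the authors with MAS5, per the submitters' processing notes. Its version and scaling target are not given in the sources used here. The 64 control probe sets were left out of 45101. Of the rest, 34945 list 1 gene symbol, 932 several and 9160 none, and the gene identifiers of 34741 were found in the RefSeq table (GRCm38.p6). Each array was rescaled to a common mean without the lowest and highest 2%, floored at the pooled 40th percentile and put on the log2 scale. Array number and signal over background limit the precision.

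The genotype test was limma (version 3.58.1, R 4.3.3): lmFit and trended eBayes, two-sided, with 2 residual and 3.68 prior degrees of freedom. Probe sets that exceeded the floor on 2 or more of the 4 arrays entered it, with Benjamini-Hochberg adjustment over them all and a threshold of 0.05. The fit was run on simulated arrays with independent spread and larger changes than those of the member genes. That run does not bear on differences of the size seen in the members. LPS against medium has 1 array each and no test. The members and lists were chosen with earlier results of these data known. Named genes are the members, Trib1, list genes past a rule (where none passed, the 2 of lowest p) and the 5 genes nearest to Serpinb2 and Plau, of which 2 were given values after they were seen. Fibrinogen genes and Plg were added after their values were seen. Alternatives were deposited values, quantile normalization, other floors, log2 of the value plus 16, a filter of at least 1 array, no trend, 1 probe set per gene, the label number as a block, arrays left out or added, and fold rules of 2 and 8. Figures used Python 3.11.15 and matplotlib 3.10.9.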

Additional observations from a re-analysis of the deposited data

How the results depend on the processing

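The genotype test made 0 calls over all probe sets and 0 among the 15 probe sets under deposited values, quantile normalization, both other floors, log2 of the value plus 16, the wider filter, no trend, the added LPS array and 1 probe set per gene. Leaving out 1 array gave 5 to 68 calls in all (5 without wild type 1, 12 without wild type 2, 28 without knockout 1, 68 without knockout 2) and 0 to 1 among the 15, with the lone array assumed to vary like the others. The call was Serpinb2 without knockout 1. With the label number as a replicate block there were 116 calls in all (85 higher and 31 lower) and 2 among the 15, Serpinb2 (log2 2.19, adjusted p = 0.00602) and F13a1 (1.83, adjusted p = 0.0310). Arrays of the same number deviated together (r = 0.35 across probe sets), but the labels do not say that numbers pair arrays and there are 2 pairs, so the block was not used. The sign turned for Plau on 1422138_at without wild type 2 (0.165) and with the LPS array added (0.0933), and for F10 on 1418993_s_at without knockout 1 (0.0127). Over the 4 arrays left out these ran from -0.56 to 0.165 and from -0.75 to 0.0127. No other genotype difference of the 15 changed sign.

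Of 6 probe sets past the 4-fold LPS rule, 2 passed at 8-fold and 1 passed limma with 3 wild-type LPS arrays, a fit limited to the 1 medium array. Other settings gave 4 to 7, not always of the same probe sets. With wild type 1 in place of the LPS array, Serpinb2, Plau on 1422138_at and F10 on 1449305_at (log2 1.99) lost the call and F13a1 gained it (-3.35). With wild type 2, Serpinb2 and both Plau probe sets lost it and F13a1 gained it (-3.51). The sign turned for Serpinb2 with wild type 1 (-0.87) or wild type 2 (-0.0629) in place of the LPS array. The cause of these changes was not tested. Plau with LPS lies near the floor, which limits its ratio.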
